A study of Rattus norvegicus with 23 samples.

Results

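The 43 named genes described here are linked to endothelial cells, pericytes, arterial smooth muscle and the blood-brain barrier. They were taken by symbol from the annotation of the array (a probe set counts where the annotation lists 1 symbol for it). Which cells the signal of each gene came from was not measured. Of the 43 names, 41 had a probe set, and these had 42 probe sets because Abcc9 had 2. Vwf and the name Kcnj8x matched none. To enter the tests a probe set had to read 40 or more on 4 or more arrays, and 40 of the genes did, among 13339 tested probe sets of 12604 genes (29211 probe sets in all). Ly6c was left out of the tests, with a signal of 13 to 31 on every array.

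Brain capillaries are lined by endothelial cells that are sealed by tight junctions, carry efflux pumps and nutrient carriers, and are wrapped by pericytes. Vascular endothelial growth factor (VEGF) signals through receptors on these cells and the angiopoietins act on the TEK receptor, and both systems set vessel growth and permeability. Transcription factors of the ETS and SOX families keep endothelial genes active. In the hippocampus this wall controls what passes from blood to neurons.

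The samples were dorsal hippocampi of male F344 rats, from 1 hemisphere each, on 23 Rat Gene 1.0 ST arrays by Affymetrix, 1 array to a rat. ST rats (n = 6) and LT rats (n = 6) carried an adeno-associated virus (AAV2/9) with FKBP1b under a CaMKII promoter, injected into CA1 on both sides, and were studied at 21 months of age. FKBP1b, or calstabin, binds ryanodine receptors and restrains calcium release, and the CaMKII promoter is used to reach excitatory neurons. By the labels ST rats were injected at 18 months with 3 months of exposure and LT rats at 12 months with 9 months of exposure, while the study's design text gives 19 and 13 months. The aged controls (AC, n = 5, 21 months) carried an eGFP vector with the same promoter, injected at 18 months by the labels and at 13 months by the design text. The young controls (YC, n = 6, 5 to 6 months) are called sham in the labels and uninjected in the methods. Between AC and YC, age, surgery and vector cannot be told apart. Between ST or LT and AC, transgene and titer cannot be told apart, since the eGFP vector was given at the higher titer. Age at injection and length of exposure also differ from AC, in LT by the labels and in ST by the design text. ST and LT rats had been chosen for FKBP1b expression above their group medians, which limits them as a sample of treated rats. Rats were perfused with saline before the hippocampus was removed. The aged rats came from 1 cohort. The p values rest on 1 spread between rats for each probe set, pooled over the 4 groups, which can be smaller than the spread in AC alone.

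Values are Robust Multiarray Average (RMA) signals, unlogged, as deposited. All 8 neuron markers read 1005 or more on every array, and Cldn5, Pecam1 and Cdh5, which mark endothelium, read 86 or more. The median signal over all probe sets of an array was 134 to 141. Differences were tested with limma on log2 signals over all tested probe sets, and a gene is called higher or lower at a Benjamini-Hochberg adjusted p under 0.05. Signals of different genes cannot be set against each other, because probes differ in brightness. Precision is limited by how many arrays each group has.

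Some arrays stood apart before any comparison. Ttr, the thyroxine carrier of the choroid plexus, was above 5000 on LT replicates 1, 2 and 5 and on AC replicates 3 and 4, and at 1352 to 3018 on the other LT arrays, 116 to 493 in ST, 363 to 694 on the other AC arrays and 482 to 1113 in YC. Values are therefore also given without these 5 arrays, which leaves 6 ST, 3 LT, 3 AC and 6 YC. Of 14 choroid plexus markers 13 were tested, with a summed signal of 2981 to 3569 in ST, 4195 to 32177 in LT, 2873 to 39311 in AC and 3512 to 4368 in YC. Of 12 blood cell markers 6 were tested, and their sum was 480 to 603 in ST, 541 to 666 in LT, 516 to 2272 in AC and 525 to 613 in YC. Of 12 microglia and macrophage markers 11 were tested, and their sum was 3165 to 4073 in ST, 3208 to 3919 in LT, 3317 to 5789 in AC and 2616 to 2769 in YC. Of 14 markers of meningeal and perivascular fibroblasts 12 were tested, summing to 2379 to 2570 in ST, 2535 to 4930 in LT, 2804 to 6007 in AC and 2529 to 2786 in YC. No tested marker of these 4 lists read 0 on any array, and the lowest single signals in the choroid plexus list were 20 to 34 in the 4 groups.

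In the comparison of AC with YC, which asks how aged vector-injected rats differ from young rats, 15 of the 40 tested vascular genes were higher in AC (37.5%, against 5.56% of all tested probe sets) and 0 were lower (against 4.18%). At an unadjusted p under 0.05 there were 20 higher and 1 lower (50% and 2.5%, each against 13.7%). The 15 were the growth genes Flt1, Kdr, Vegfa, Tek, Angpt2 and Eng, the adhesion and junction genes Pecam1, Cldn5, Esam and Emcn, the transcription factors Ets1 and Erg, the transporters Abcb1a and Slco1a4, and the pericyte channel subunit Abcc9. All AC arrays lay above all YC arrays for 9 genes (22.5%, against 3.21% of all tested probe sets). The log2 fold change was above 0 for 32 of the 40 (80%, against 47.5%). Over the 40 genes its median was 0.15, against -0.01 over all tested probe sets. Without the 5 arrays with Ttr above 5000, 7 genes were higher (17.5%, against 2.2%), namely Flt1, Kdr, Angpt2, Eng, Pecam1, Cldn5 and Abcb1a, and 0 were lower (against 0.697%). The median was then 0.12, against 0 over all tested probe sets, and 9 genes did not overlap (22.5%, against 5.22%). In these bulk samples, more cells of a type and more RNA per cell cannot be told apart.

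**Figure D1:**
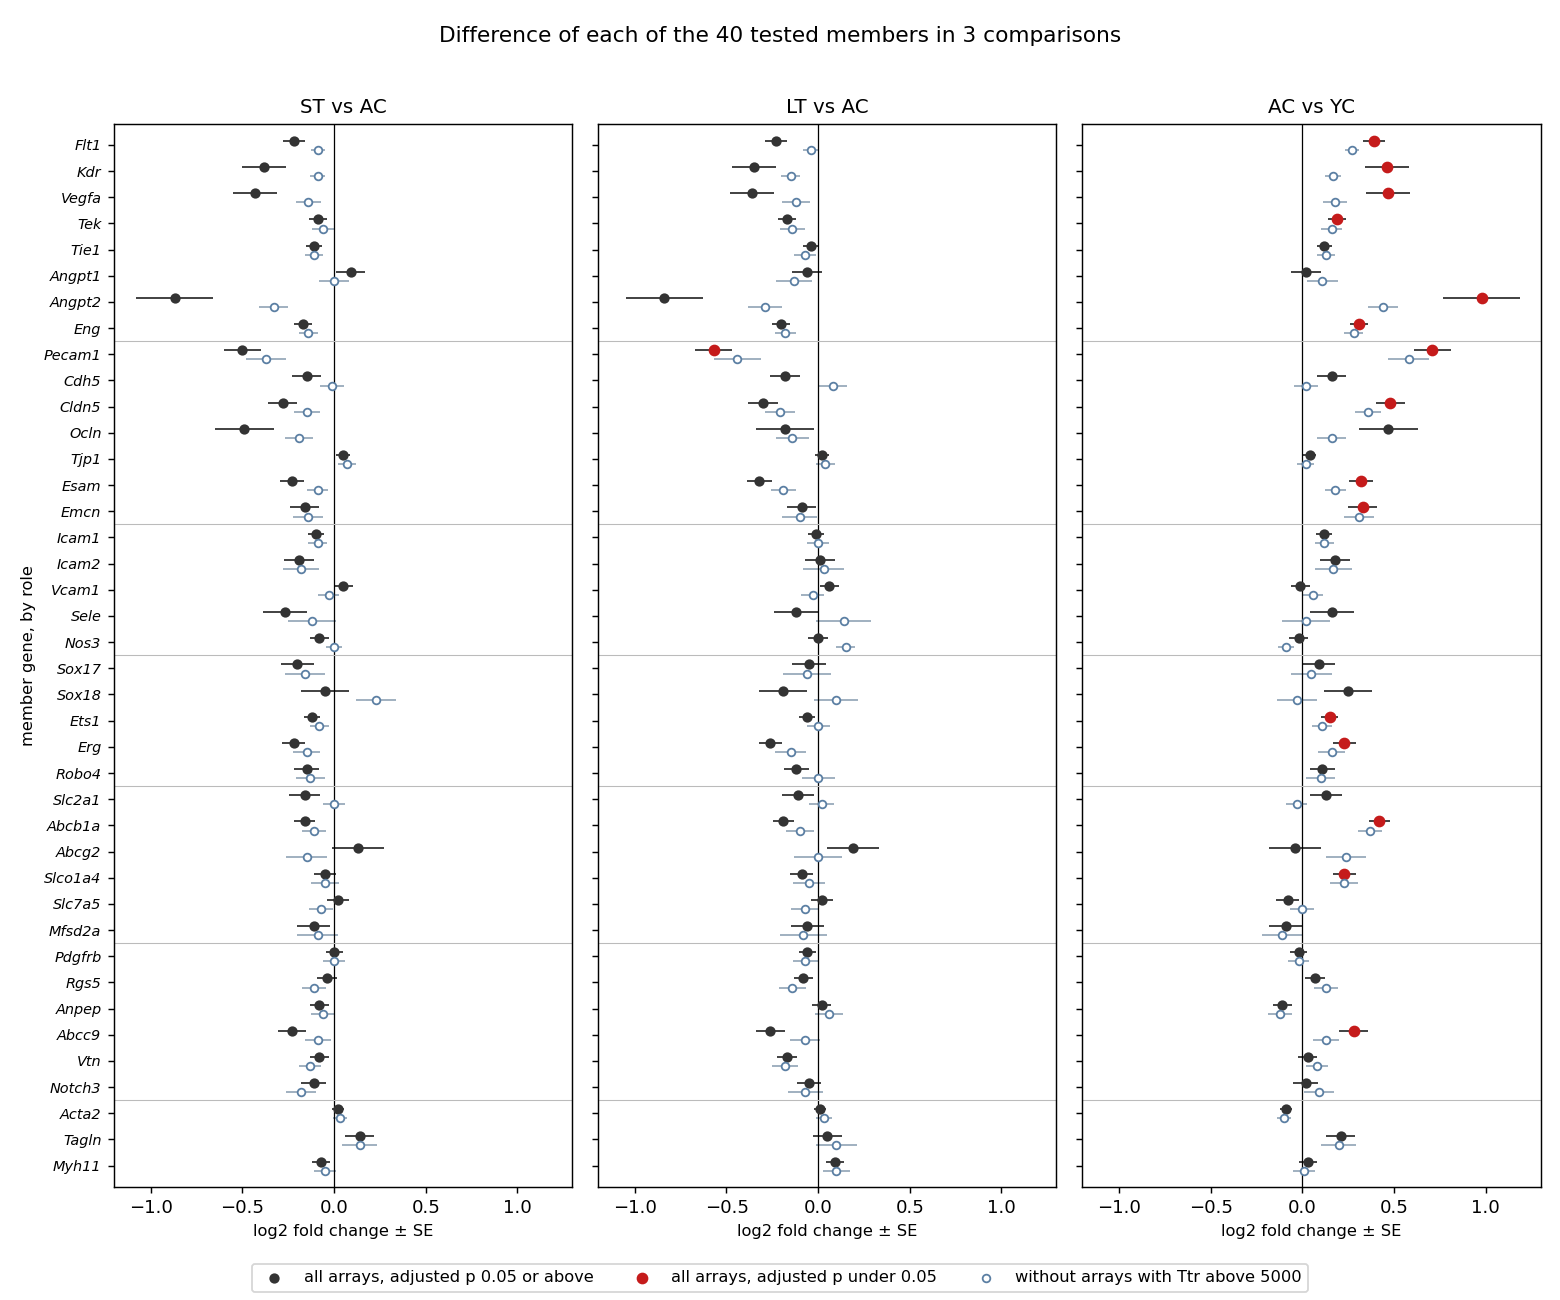
Log2 fold change ± SE of each of the 40 tested genes, grouped by role, in ST against AC, LT against AC and AC against YC. Filled points use all 23 arrays (red where the adjusted p is under 0.05) and open points leave out the 5 arrays with Ttr above 5000. In AC against YC 15 points are red, all right of 0, in LT against AC only Pecam1 is red, and in ST against AC none is.

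RefSeq promoter windows (build GRCr8, 250 bases before to 50 bases after the start) were listed for 26 of the 43 genes and for 10 of the 15 that were higher in AC. The ETS motif CNGGAAG, on either strand, was in the windows of 6 of the 26 genes and 3 of these 10, against 30.8% of all 33469 windows. The core of the hypoxia response element, ACGTG on either strand, was in 6 of the 26 and 1 of the 10, against 19.3%. The CArG box, the motif of serum response factor, was in 0 of the 26, against 1.6%. Shown are the windows of the 3 genes higher in AC with an ETS match (Emcn, chr2:228564289-228564588, plus strand; Erg, chr11:48251517-48251816, minus strand; Slco1a4, chr4:176495797-176496096, minus strand) and those of Flt1 (chr12:12333180-12333479, plus strand) and Abcb1a (chr4:26397599-26397898, minus strand), the 2 genes whose call in AC against YC held in all settings tried. Capitals mark the motif matches, and the CACGTG of Slco1a4 counts on both strands.
Flt1: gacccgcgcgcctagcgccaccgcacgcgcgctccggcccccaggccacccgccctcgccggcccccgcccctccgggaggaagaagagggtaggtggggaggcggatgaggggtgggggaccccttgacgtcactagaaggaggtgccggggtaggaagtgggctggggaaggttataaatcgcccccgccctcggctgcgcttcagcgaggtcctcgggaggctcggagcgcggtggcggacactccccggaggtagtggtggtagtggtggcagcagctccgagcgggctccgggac
Emcn: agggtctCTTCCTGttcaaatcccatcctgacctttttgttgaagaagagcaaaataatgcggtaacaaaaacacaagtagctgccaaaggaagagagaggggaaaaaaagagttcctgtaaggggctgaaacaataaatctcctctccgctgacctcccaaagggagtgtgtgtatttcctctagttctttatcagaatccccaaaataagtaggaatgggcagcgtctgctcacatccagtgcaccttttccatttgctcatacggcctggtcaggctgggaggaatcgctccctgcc
Erg: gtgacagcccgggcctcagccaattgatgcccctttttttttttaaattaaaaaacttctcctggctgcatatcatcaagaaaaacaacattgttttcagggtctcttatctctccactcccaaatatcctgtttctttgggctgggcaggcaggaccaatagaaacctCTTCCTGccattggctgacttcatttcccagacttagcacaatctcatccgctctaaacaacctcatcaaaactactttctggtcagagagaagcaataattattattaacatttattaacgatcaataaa
Slco1a4: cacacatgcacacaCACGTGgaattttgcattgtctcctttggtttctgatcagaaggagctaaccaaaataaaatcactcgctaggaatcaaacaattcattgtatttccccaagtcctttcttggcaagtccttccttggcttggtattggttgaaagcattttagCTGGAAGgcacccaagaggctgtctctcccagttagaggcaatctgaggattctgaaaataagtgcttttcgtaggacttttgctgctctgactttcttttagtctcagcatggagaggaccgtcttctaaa
Abcb1a: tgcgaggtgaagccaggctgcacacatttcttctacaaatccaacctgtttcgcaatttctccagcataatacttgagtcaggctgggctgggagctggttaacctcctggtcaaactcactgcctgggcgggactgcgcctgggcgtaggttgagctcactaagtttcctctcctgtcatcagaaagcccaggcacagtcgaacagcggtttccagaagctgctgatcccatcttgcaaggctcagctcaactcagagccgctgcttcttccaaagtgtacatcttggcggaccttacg
In these windows Flt1 and Abcb1a held no match of the 3 motifs. The ETS match began 243 bases before the start in Emcn, 81 in Erg and 82 in Slco1a4. A match is a description of the letters in the window.

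Among receptors and ligands of vessel growth, 6 of 8 genes were higher in AC than in YC, and all 8 log2 fold changes were above 0. Flt1, a VEGF receptor that also acts as a decoy, read 426, 433.5 and 452 in ST (lowest, median and highest), 390, 442 and 469 in LT, 451, 472, 577, 576 and 471 in AC (replicates 1 to 5) and 372, 382.5 and 412 in YC. Every AC array lay above every YC array, AC replicates 3 and 4 were highest, and ST reached 1 unit into the AC range. The AC mean was 509 ± 61.8 (SD, n = 5) and the YC mean 386 ± 15.6 (SD, n = 6), a log2 fold change of 0.39 (SE 0.061, limma adjusted p = 6.6e-04). Without the arrays with Ttr above 5000 it was 0.27.

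Kdr, the main signaling receptor for VEGF, read 107, 109.5 and 114 in ST, 98, 109.5 and 150 in LT, 113, 119, 183, 206 and 120 in AC and 100, 104 and 110 in YC. AC replicates 3 and 4 were far above the rest, LT replicate 2 came next, and the other AC arrays were 3 or more units above the highest YC array. AC exceeded YC by 0.46 on the log2 scale (SE 0.12, limma adjusted p = 0.024) and by 0.17 without the arrays with Ttr above 5000. The call was lost without AC replicate 3 (0.37) and without AC replicate 4 (0.33).

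Vegfa, the ligand of both receptors, read 622, 660.5 and 697 in ST, 631, 655 and 856 in LT, 628, 744, 1244, 1152 and 828 in AC and 600, 648 and 663 in YC. Replicate 1 of AC lay within the YC range and the other 4 above it. AC exceeded YC by 0.47 on the log2 scale (SE 0.12, limma adjusted p = 0.021) and by 0.18, not called, without the arrays with Ttr above 5000. Leaving out AC replicate 3 (0.35) or AC replicate 4 (0.37) also ended the call.

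Angpt2, the angiopoietin that endothelial cells store and release and that can oppose TEK signaling, moved most of the 40 genes. It read 64, 68 and 70 in ST, 53, 69 and 92 in LT, 73, 86, 211, 221 and 98 in AC and 57, 62.5 and 69 in YC. All AC arrays lay above all YC and all ST arrays, with replicates 3 and 4 at more than 2 times the others. The AC mean was 138 ± 72 (SD, n = 5) against 62.7 ± 4.13 (SD, n = 6) in YC, a log2 fold change of 0.98 (SE 0.21, limma adjusted p = 0.0078) and 0.44 without the arrays with Ttr above 5000. The call was lost when AC and YC were fitted without the ST and LT arrays. Angpt1, the agonist of the same receptor, read 120, 137 and 142 in ST, 104, 124.5 and 134 in LT, 117, 140, 114, 116 and 149 in AC and 110, 128.5 and 139 in YC, with a log2 fold change of 0.02 in AC over YC (SE 0.08, limma adjusted p = 0.89).

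Tek, the angiopoietin receptor, read 168, 198 and 203 in ST, 172, 183.5 and 194 in LT, 188, 195, 217, 208 and 221 in AC and 170, 180 and 190 in YC. Only AC replicate 1 lay within the YC range. AC was 0.19 above YC on the log2 scale (SE 0.049, limma adjusted p = 0.021) and 0.16, not called, without the arrays with Ttr above 5000. Without AC replicate 3 it was 0.17 and not called. Tie1, its orphan partner receptor, read 183, 193.5 and 214 in ST, 194, 206 and 214 in LT, 202, 212, 201, 220 and 219 in AC and 182, 193 and 203 in YC, with 0.12 for AC over YC (SE 0.042, limma adjusted p = 0.063), not called.

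Eng, a co-receptor for TGF-beta and BMP ligands on endothelium, read 283, 288.5 and 300 in ST, 263, 285.5 and 318 in LT, 303, 296, 319, 353 and 364 in AC and 258, 261.5 and 275 in YC. All AC and all ST arrays lay above all YC arrays, and AC replicate 5 was highest. Its log2 fold change of AC over YC was 0.31 (SE 0.049, limma adjusted p = 8.4e-04), and 0.28 without the arrays with Ttr above 5000.

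**Figure D2:**
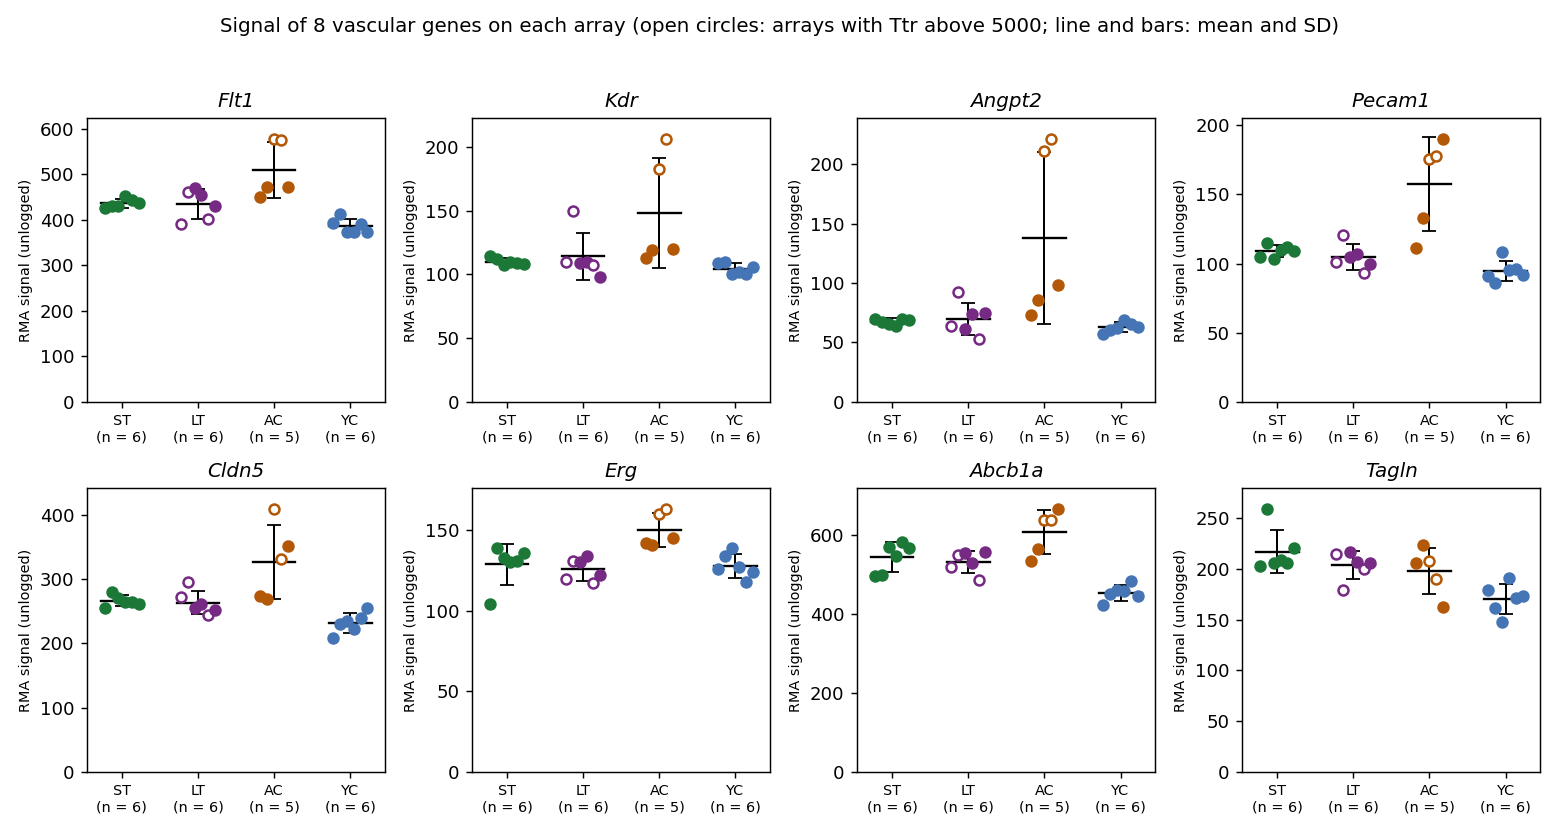
RMA signal (unlogged, vertical axes from 0) of 8 vascular genes on each array of the ST, LT, AC and YC groups. Points are arrays, open where Ttr is above 5000, and lines with bars are mean ± SD. The AC arrays lie above all YC arrays in Flt1, Kdr, Angpt2, Pecam1, Cldn5, Erg and Abcb1a, and in Tagln all ST arrays (203 to 259) lie above all YC arrays (148 to 191).

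Of the 7 genes of endothelial adhesion and junctions, 4 were higher in AC than in YC. Pecam1, an adhesion molecule of endothelial contacts that platelets and leukocytes also carry, read 103, 109.5 and 115 in ST, 93, 103 and 121 in LT, 111, 133, 176, 178 and 190 in AC and 86, 93.5 and 108 in YC. All AC arrays lay above all YC arrays, and AC replicate 1 lay within the ST and LT ranges. The AC mean was 158 ± 33.8 (SD, n = 5) against 94.7 ± 7.42 (SD, n = 6) in YC. This is a log2 fold change of 0.71 (SE 0.1, limma adjusted p = 3.7e-04), which was 0.58 without the arrays with Ttr above 5000.

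Cldn5, the claudin that seals brain endothelial tight junctions, read 255, 265 and 280 in ST, 244, 258.5 and 295 in LT, 274, 270, 409, 331 and 352 in AC and 209, 232.5 and 256 in YC. All AC arrays lay above all YC arrays, and AC replicates 1 and 2 lay within the ST and LT ranges. AC was 0.48 above YC on the log2 scale (SE 0.08, limma adjusted p = 0.0014) and 0.36 above it without the arrays with Ttr above 5000.

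Esam, an adhesion molecule of endothelial tight junctions, read 196, 208 and 218 in ST, 181, 193.5 and 208 in LT, 198, 222, 272, 286 and 245 in AC and 187, 196 and 201 in YC. Replicate 1 of AC lay within the YC range. AC exceeded YC by 0.32 on the log2 scale (SE 0.067, limma adjusted p = 0.0067) and by 0.18, not called, without the arrays with Ttr above 5000. Emcn, a sialomucin of capillary and venous endothelium, read 172, 182.5 and 190 in ST, 172, 191.5 and 218 in LT, 191, 202, 182, 237 and 208 in AC and 145, 153 and 201 in YC. Its AC and YC arrays overlapped through 1 YC array, at 201. AC was 0.33 above YC (SE 0.079, limma adjusted p = 0.013) and 0.31, not called, without the arrays with Ttr above 5000.

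The other 3 junction genes were not called. Ocln, occludin of tight junctions, read 142 to 168 in ST, 148 to 286 in LT, 156, 188, 278, 322 and 189 in AC and 146 to 170 in YC. Its 4 highest arrays, 2 of AC and 2 of LT (286 and 245 on LT replicates 2 and 5), were also the 4 with the highest Ttr. AC was 0.47 above YC (SE 0.16, limma adjusted p = 0.07) and 0.16 above it without the arrays with Ttr above 5000. Cdh5, the cadherin of endothelial junctions, averaged 171 in ST, 167 in LT, 190 in AC and 169 in YC. Tjp1, the junction scaffold ZO-1, averaged 2410 in ST, 2350 in LT, 2330 in AC and 2270 in YC.

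Genes of leukocyte adhesion and hemostasis gave 0 calls in AC against YC among the 5 tested. Icam1, a ligand of leukocyte integrins, had the smallest p of them and read 154, 161 and 178 in ST, 160, 173.5 and 191 in LT, 173, 172, 170, 180 and 178 in AC and 154, 159.5 and 169 in YC. All AC arrays lay above all YC arrays, by 1 unit at the nearest. On the log2 scale AC was higher by 0.12 (SE 0.043, limma adjusted p = 0.075). The log2 fold change was 0.18 for Icam2 and -0.01 for Vcam1, further adhesion molecules, 0.16 for Sele, the selectin of activated endothelium, and -0.02 for Nos3, the endothelial nitric oxide synthase, with limma adjusted p of 0.16 to 0.9.

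Of the 5 genes of endothelial transcription and guidance, Ets1 and Erg were higher in AC than in YC. Erg, an ETS factor that maintains endothelial identity, read 104, 132 and 139 in ST, 117, 126 and 134 in LT, 142, 141, 160, 163 and 145 in AC and 118, 126.5 and 139 in YC. All AC arrays lay above all arrays of the other 3 groups. Over YC this was 0.23 on the log2 scale (SE 0.064, limma adjusted p = 0.026), and 0.16, not called, without the arrays with Ttr above 5000. The call was also lost without AC replicate 3 (0.21) or 4 (0.2) and without YC replicate 5 (0.21) or 6 (0.22).

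Ets1, another ETS factor, read 134, 143 and 147 in ST, 140, 148.5 and 157 in LT, 154, 133, 159, 162 and 164 in AC and 131, 139.5 and 144 in YC. Replicate 2 of AC lay within the YC range. On the log2 scale AC was higher by 0.15 (SE 0.045, limma adjusted p = 0.041) and by 0.11, not called, without the arrays with Ttr above 5000. The call was lost in 8 of the 23 fits that each left out 1 array, namely AC replicate 3, 4 or 5 or YC replicate 1, 3, 4, 5 or 6, with values between 0.13 and 0.15. Sox17 and Sox18, SOX factors of endothelium, had 0.09 and 0.25, and Robo4, a guidance receptor of endothelium, had 0.11, none of them called. Sox18 read 164 and 145 on AC replicates 3 and 4 and 80 to 108 on the other AC arrays.

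Of 6 barrier transporters, Abcb1a and Slco1a4 were higher in AC than in YC. Abcb1a, the efflux pump P-glycoprotein, read 498, 557.5 and 584 in ST, 486, 539.5 and 557 in LT, 535, 566, 639, 638 and 666 in AC and 422, 454.5 and 485 in YC. All arrays of the 3 aged groups lay above all YC arrays. The AC mean was 609 ± 55.5 (SD, n = 5) and the YC mean 454 ± 20.5 (SD, n = 6), a log2 fold change of 0.42 (SE 0.057, limma adjusted p = 2.9e-04) and 0.37 without the arrays with Ttr above 5000. Whether the probes of Abcb1a tell it from its close relative Abcb1b was not tested.

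Slco1a4, an organic anion carrier of the barrier, read 470, 491.5 and 557 in ST, 459, 484 and 514 in LT, 452, 519, 500, 538 and 581 in AC and 396, 428 and 502 in YC. Replicates 1 and 3 of AC lay within the YC range. AC exceeded YC by 0.23 on the log2 scale (SE 0.061, limma adjusted p = 0.021), and also by 0.23, though not called, without the arrays with Ttr above 5000. Without AC replicate 4 it was 0.22 and not called.

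The other 4 carriers were not called in any comparison: Slc2a1, the glucose transporter GLUT1, Abcg2, an efflux pump, Slc7a5, a large neutral amino acid carrier, and Mfsd2a, the carrier of docosahexaenoic acid as lysophospholipid. Slc2a1 averaged 1170 ± 81.4 in ST (SD, n = 6), 1210 ± 89.3 in LT (SD, n = 6), 1320 ± 270 in AC (SD, n = 5) and 1190 ± 24.3 in YC (SD, n = 6), with AC replicate 3 at 1780. Abcg2 was lowest in AC on replicates 3 and 4, at 130 and 113, against 161 to 234 on the other AC arrays.

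Pericyte genes gave 1 call of 6 in AC against YC. Abcc9, the sulfonylurea receptor subunit of a potassium channel of pericytes, read 130, 141 and 152 in ST, 126, 136 and 154 in LT, 130, 147, 196, 187 and 173 in AC and 131, 133.5 and 144 in YC. Replicate 1 of AC lay below every YC array and the other 4 above. AC exceeded YC by 0.28 on the log2 scale (SE 0.077, limma adjusted p = 0.026) and by 0.13, not called, without the arrays with Ttr above 5000. Leaving out AC replicate 3 (0.22), AC replicate 4 (0.23) or YC replicate 2 (0.27) also ended the call. The second Abcc9 probe set had 0.22 (SE 0.079, limma adjusted p = 0.074). In AC against YC the log2 fold change was -0.02 for Pdgfrb, the PDGF receptor that recruits pericytes, 0.07 for Rgs5, a G protein regulator, 0.03 for Vtn, vitronectin, and 0.02 for Notch3, the mural Notch receptor. In 3 of these 4 the highest AC value was on replicate 5, with Rgs5 at 943 against 712 to 778 on the other AC arrays, Notch3 at 148 against 104 to 116 and Vtn at 318 against 256 to 289. Anpep, the aminopeptidase CD13 of pericytes, had -0.11 (SE 0.052, limma adjusted p = 0.2).

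Genes of arterial smooth muscle gave 0 calls of 3 in AC against YC. Acta2, smooth muscle actin, averaged 378 ± 15.3 in ST (SD, n = 6), 375 ± 8.87 in LT (SD, n = 6), 372 ± 18.2 in AC (SD, n = 5) and 397 ± 3.54 in YC (SD, n = 6). All LT arrays (363 to 385) lay below all YC arrays (390 to 400), at a log2 fold change of -0.08 (SE 0.031, limma adjusted p = 0.22), and it was the 1 of the 40 genes with LT wholly below YC (2.5%, against 1.04%). Myh11, smooth muscle myosin, read 139 to 163 in ST, 157 to 179 in LT, 145 to 172 in AC and 147 to 172 in YC.

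The 5 AC arrays differed among themselves more than the arrays of the other groups. A score, the mean over the 40 genes of each log2 signal minus its mean over all arrays, was -0.07 to 0 in ST, -0.06 to 0.05 in LT, -0.02, 0.03, 0.23, 0.21 and 0.17 in AC and -0.09 to -0.04 in YC. AC replicates 3, 4 and 5 were the 3 highest of the 23 arrays, while replicates 1 and 2 lay within the LT range. On replicates 3 and 4 the choroid plexus score was 2.68 and 3.23, the blood cell score 0.95 and 0.98 and the fibroblast score 0.55 and 0.73. LT replicates 2 and 5 had choroid plexus scores of 2.68 and 2.73. There the score of the 40 genes was 0.05 and -0.06 and the blood cell score -0.05 and -0.02. In LT the fibroblast score reached 0.61, on an array with Ttr above 5000, and was -0.17 to -0.16 on the arrays with lower Ttr. AC replicate 5 had a choroid plexus score of -0.77, with a microglia and macrophage score of 0.8 and a fibroblast score of 0.4. Its oligodendrocyte score was -0.48 and its RNA integrity number 8.9. LT replicate 3 also had an RNA integrity number of 8.9, with a score of the 40 genes of 0.03. With the microglia and macrophage score as a covariate, Flt1 and Abcb1a alone of the 15 kept their call. Over all tested probe sets 253 were then higher, against 742 without it. With the choroid plexus score as a covariate Vegfa, Ets1, Erg and Abcc9 lost theirs, and 640 were higher over all. Of the 11 microglia and macrophage genes 8 were themselves higher in AC than in YC. Beyond these fits the part of these cell types in the 15 calls was not tested.

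**Figure D3:**
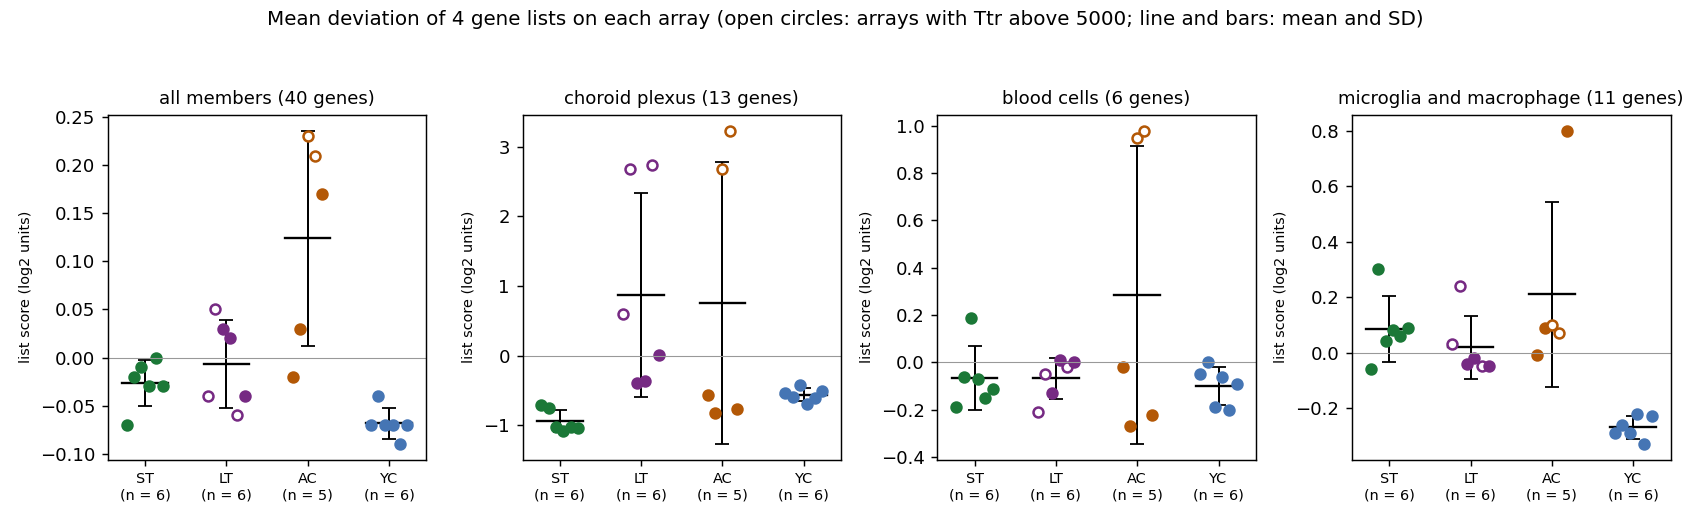
Score of 4 gene lists (mean log2 deviation, in log2 units) on each array of the ST, LT, AC and YC groups. Points are arrays, open where Ttr is above 5000, and lines with bars are mean ± SD. The 40 vascular genes are highest on AC replicates 3, 4 and 5, the choroid plexus genes on those AC replicates 3 and 4 as well as LT replicates 2 and 5, and the microglia genes on AC replicate 5.

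In ST against AC, which sets the shorter exposure to FKBP1b against the eGFP vector, 0 of the 40 genes were called in either direction, as were 0% of all tested probe sets. A one-way analysis of variance of unlogged signals, at the same adjusted threshold, also called 0. Without AC replicate 1 the limma count was 5, all lower, and over all 13339 tested probe sets 14 were then higher and 51 lower. At an unadjusted p under 0.05, 19 of the 40 were lower in ST (47.5%, against 4.91%) and 0 were higher (against 4.91%). The log2 fold change was below 0 for 33 of 40 (82.5%, against 43.3%), with a median of -0.12, against 0.01 over all tested probe sets. Angpt2 and Erg lay below every AC array on every ST array (5%, against 0.315%). Without the arrays with Ttr above 5000, 9 of the 40 were lower at an unadjusted p under 0.05 (22.5%, against 4.34%), 1 was higher, Sox18 (2.5%, against 3.76%), and the median was -0.09. Angpt2, Emcn and Erg then lay below every AC array (7.5%, against 0.795%).

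In LT against AC, which does the same for the longer exposure, 1 gene was lower (2.5%, against 0.0225%) and 0 were higher (against 0.0525%). This was Pecam1, at 104 ± 9.42 in LT (SD, n = 6) against 158 ± 33.8 in AC (SD, n = 5), a log2 fold change of -0.57 (SE 0.1, limma adjusted p = 0.039). It was lower on 5 of 6 LT arrays than on every AC array, the exception being LT replicate 2 at 121 against AC replicate 1 at 111. Without the arrays with Ttr above 5000 Pecam1 was at -0.44 and was not called, and over all alternatives tried its limma adjusted p ranged between 1.7e-04 and 0.32. Leaving out single arrays ended the call without AC replicate 3 (-0.52), 4 (-0.52) or 5 (-0.49), LT replicate 1 (-0.56), 3 (-0.57), 5 (-0.54) or 6 (-0.56), and ST replicate 5, ST replicate 6, YC replicate 1 or YC replicate 5 (-0.57 each). At an unadjusted p under 0.05, 14 of the 40 were lower (35%, against 6.59%) and 0 were higher (against 6.03%). Without AC replicate 1 the count called was 9, all lower, and over all 13339 tested probe sets it was 47 higher and 57 lower, against 7 and 3 with all arrays. Erg lay below every AC array on every LT array (2.5%, against 0.54%). Without the arrays with Ttr above 5000, 7 were lower at an unadjusted p under 0.05 (17.5%, against 7.08%), and 6 lay below every AC array (15%, against 7.35%), namely Kdr, Tek, Eng, Pecam1, Cldn5 and Erg. Nos3 was then higher at an unadjusted p under 0.05 (2.5%, against 4.97%) and lay above every AC array (2.5%, against 4.83%), and 13 of the 40 had a log2 fold change above 0 (32.5%, against 48.3%).

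Set side by side, Pecam1 had -0.5 in ST against AC and -0.57 in LT against AC, Angpt2 -0.87 and -0.84, Kdr -0.38 and -0.35, and Vegfa -0.43 and -0.36. Flt1 had -0.22 and -0.23, Cldn5 -0.28 and -0.3, Esam -0.23 and -0.32, and Abcb1a -0.16 and -0.19. The genes set side by side were all among the 15 called higher in AC than in YC. Their mean signals without the arrays with Ttr above 5000 follow in the order ST, LT and AC. Pecam1 then had 109, 104 and 145, Angpt2 67.5, 70 and 85.7, Kdr 110, 106 and 117, and Vegfa 662, 674 and 733. Flt1 had 436, 451 and 465, Cldn5 266, 256 and 299, Esam 207, 194 and 222, and Abcb1a 544, 548 and 589. In ST against AC Angpt1 was above 0 and Icam2, Nos3, Anpep and Myh11 below, and in LT against AC the reverse. These comparisons and that of AC with YC share the AC arrays, so a high AC array moves all 3. With both FKBP1b groups averaged, Pecam1 was the 1 gene called against AC (2.5%, against 0.015% lower), at -0.54 (SE 0.09, limma adjusted p = 0.017). The call was lost without AC replicate 3 (-0.49), 4 (-0.48) or 5 (-0.46) and without the arrays with Ttr above 5000 (-0.41).

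Between LT and ST 0 of the 40 genes were called (against 0.0075% of all tested probe sets higher and 0% lower), and at an unadjusted p under 0.05 Icam2 and Myh11 were higher in LT (5%, against 4.95%) and 0 genes lower (against 7.45%). The 95% interval of the difference reached from -0.27 to 0.14 for Pecam1 and from -0.4 to 0.45 for Angpt2.

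Against YC, 2 genes were higher in ST (5%, against 2.71%) and 1 was lower (2.5%, against 1.44%). Abcb1a averaged 544 ± 37.5 in ST (SD, n = 6) and 454 ± 20.5 in YC (SD, n = 6), with 0.26 on the log2 scale (SE 0.054, limma adjusted p = 0.0098) and no overlap. Flt1, Eng, Abcb1a and Tagln did not overlap between ST and YC (10%, against 3.49%). Tagln, the actin-binding protein SM22 of smooth muscle, read 203, 207.5 and 259 in ST, 179, 206.5 and 217 in LT, 206, 224, 208, 190 and 163 in AC and 148, 172 and 191 in YC. All ST arrays lay above all YC arrays, and the log2 fold change was 0.35 (SE 0.074, limma adjusted p = 0.011). Without the arrays with Ttr above 5000, Flt1 (0.18), Abcb1a and Tagln were higher in ST (7.5%, against 2.67%) and 0 genes were lower (against 1.39%).

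Anpep read 108, 124 and 127 in ST, 120, 129 and 138 in LT, 118, 119, 133, 127 and 142 in AC and 126, 139 and 145 in YC. Its ST and YC arrays overlapped between 126 and 127. Its log2 fold change of ST over YC was -0.19 (SE 0.05, limma adjusted p = 0.036). The call was lost without the arrays with Ttr above 5000 (-0.19), and without YC replicate 2 (-0.18), 4 (-0.18), 5 (-0.19) or 6 (-0.17) or ST replicate 3 (-0.18), 4 (-0.16) or 6 (-0.2). 

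In LT against YC, Abcb1a was the 1 gene called (2.5%, against 0.81% higher and 0.225% lower), at 533 ± 27.5 in LT (SD, n = 6) and 454 ± 20.5 in YC (SD, n = 6), a log2 fold change of 0.23 (SE 0.054, limma adjusted p = 0.043). The call was lost in 11 of the 23 fits that each left out 1 array, with values of 0.21 to 0.24 (YC replicate 1, 2, 3, 4 or 6, ST replicate 4, or LT replicate 1, 2, 3, 4 or 6). Without the arrays with Ttr above 5000 Abcb1a was at 0.27 and not called, and Flt1 was the 1 gene called higher (2.5%, against 0.127%).

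**Figure D4:**
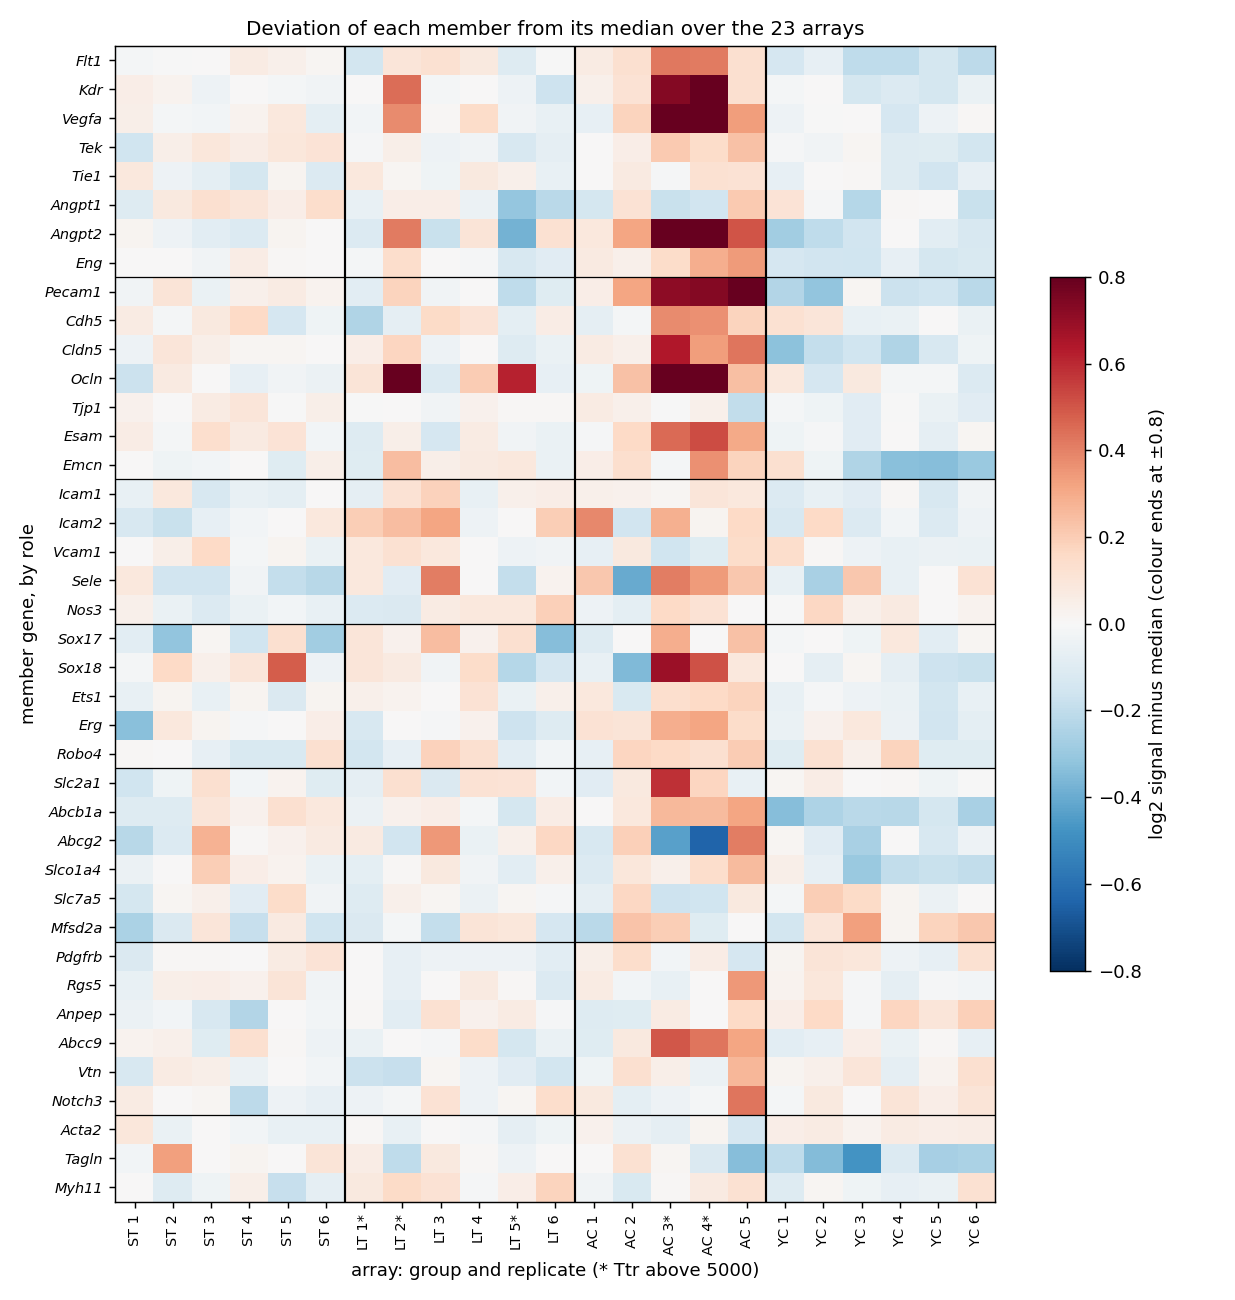
Deviation of the log2 signal of each of the 40 genes (rows, by role) from its median over the 23 arrays, on each array (columns, by group, with * where Ttr is above 5000). Red is higher and blue lower, with the colour scale ending at ±0.8. AC replicates 3 and 4 are red in most growth, adhesion and junction genes, AC replicate 5 also in Notch3 and Rgs5, and LT replicates 2 and 5 are red together in Ocln.

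Further lists of vascular genes, chosen by role, were set beside the 40 genes in AC against YC, with the 5.56% of all tested probe sets called higher as their background. Of 27 other genes of the VEGF, angiopoietin, PDGF and TGF-beta pathways, 6 were higher and 0 lower. Tgfb1, a ligand of endoglin's pathway, averaged 321 in AC and 223 in YC (log2 fold change 0.51, limma adjusted p = 0.0016). Pdgfa, a PDGF ligand, had 0.19, Tgfbr3, the co-receptor betaglycan, 0.4, and Tgfb2, another ligand, 0.38. Of 12 Notch and ephrin genes, 2 were higher, the ligand Jag1 (0.19) and the target Hey1 (0.17), and of 13 Wnt genes, 2, the co-receptor Lrp6 (0.12) and the transcription factor Lef1 (0.15). In these 3 lists no gene was lower. The higher genes were 4 of the 27, 2 of the 12 and 0 of the 13 without the arrays with Ttr above 5000. The background was then 2.2% of all tested probe sets.

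Of 14 other junction genes 1 was higher, F11r (JAM-A), at 121 in AC and 82.2 in YC, a log2 fold change of 0.53 that was 0.27 without the arrays with Ttr above 5000. Among 20 other transporters and receptors 4 were higher, namely the endocytic receptor Lrp1 (0.12) and the carriers Slco2b1 (0.32), Abcc4 (0.25) and Slc22a8 (0.76, and 0.43 without the arrays with Ttr above 5000). Of 36 other endothelial genes 8 were higher. They included Tm4sf1, a membrane protein of endothelial cells, at 231 in AC and 169 in YC (log2 fold change 0.45, limma adjusted p = 3.4e-04), Ramp2, a subunit of the adrenomedullin receptor (0.38), Cyyr1 (0.22) and Adgrl4, an adhesion receptor of endothelium (0.39). Of 25 other pericyte and smooth muscle genes 2 were higher, Ifitm1, an interferon-induced membrane protein (0.71), and Cald1, caldesmon (0.29). With the arrays with Ttr above 5000 left out, 2.2% of all tested probe sets were higher. The higher genes were then 0 of the 14 junction genes and 3 of the 20 transporters and receptors. They were 1 of the 36 endothelial genes (Tm4sf1) and 2 of the 25 pericyte and smooth muscle genes. No gene of these 4 lists was lower in AC, and in ST against AC and LT against AC 0 genes of the 7 lists were called.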

How the data were processed

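Signal intensities per probe set were made by the authors with the Robust Multiarray Average algorithm and deposited unlogged and rounded (4 to 20673, with 758 blanks, of which none lay in the 42 probe sets described); no source used here gives software versions. The study gives 6 arrays for each group, and 23 are analysed here. Groups came from the labels.

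Log2 intensities of 13339 probe sets (1 symbol, 40 or more on 4 or more arrays) were fitted with limma 3.58.1 in R 4.3.3, with 1 mean for each of 4 groups, moderated variances and Benjamini-Hochberg adjustment over all of them. One-way analysis of variance of unlogged values with pairwise contrasts, adjusted in the same way, was an alternative; it differs from the methods, which used unadjusted thresholds and dropped outlying values. The probe set with the highest mean stands for a gene. Array values are given for members called in any comparison or, in a role group with none, for the member with the smallest p in AC against YC, and of each further list up to 4 called genes by smallest p. Other members are summarised, and those described by single arrays beyond the rule were picked after their values were seen.

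The 43 genes and all lists were chosen with earlier results of these data known. Alternatives were each array left out, the arrays with Ttr above 5000 left out, a replicate block, quantile or median scaling, no minimum or a minimum of 100, values over 2 SD missing, RNA integrity number as a covariate, a variance trend and the compared groups alone. Among 5 values none can lie over 2 SD from their mean, so the setting with such values missing could drop no AC value. In AC against YC it left the counts over all tested probe sets at 742 higher and 558 lower. Choroid plexus and microglia scores as covariates, and leaving out 4 arrays (LT replicates 2 and 5, AC replicates 3 and 4), were added after seeing the data. The fits were tested on simulated data. Promoter windows are from RefSeq.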

Additional observations from a re-analysis of the deposited data

Results flagged for a closer look

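Of 164 sets of values (each gene's signal in each group), 13 had an array far from the others of its group by Dixon's ratio, where chance gives about 1 in 20. In 10 of them the far array was the lowest and in 3 the highest, and 1 of them was an array with Ttr above 5000. That one was Kdr at 150 on LT replicate 2, with the next LT array at 110.

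ST replicate 1 was low in Tek at 168 (next 194), in Angpt1 at 120 (next 134) and in Erg at 104 (next 130). ST replicate 2 was high in Tagln at 259 (next 221), the gene called higher in ST than in YC, and Sox17 read 68 on LT replicate 6 (next 88). Tjp1 was low at 2047 on AC replicate 5 (next 2334), Sele at 37 on AC replicate 2 (next 57) and Robo4 at 131 on AC replicate 1 (next 150). In YC, Vegfa read 600 on replicate 4 (next 639), Vcam1 427 on replicate 1 (next 390), Ets1 131 on replicate 5 (next 139) and Acta2 390 on replicate 3 (next 397).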

How the results depend on the processing

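In AC against YC the count of members called was 15. It was 7 without the arrays with Ttr above 5000, 6 with the compared groups alone, 3 with the microglia score as a covariate, 8 without 4 arrays (LT replicates 2 and 5, AC replicates 3 and 4), and 9 to 18 when single arrays were left out, with 9 when AC replicate 3 or 4 was out. Over all tested probe sets the higher calls were 742 with all arrays, and in these settings 293, 242, 253 and 303, with 510 and 516 when AC replicate 3 or 4 was out, so calls fell across the array as well. Under the other settings the member count was within 1.5 times 15. Flt1 and Abcb1a kept their call in 37 of 37 settings. With the microglia score as a covariate they alone of the 15 kept it, so the count of 3 there includes a gene outside the 15. Eng, Pecam1 and Cldn5 lost their call in that setting only. In ST against AC the count was 0, and 0 to 5 when single arrays were left out, with 5 lower without AC replicate 1 (14 higher and 51 lower over all tested probe sets, against 0 and 0). In LT against AC the count of 1 (Pecam1) was 0 without the arrays with Ttr above 5000, with the one-way analysis of variance, with the compared groups alone, with the microglia score and without the 4 arrays named above, 2 with equal medians or a minimum of 100, 4 with the choroid plexus score as a covariate (19 higher and 25 lower over all), and 0 to 9 when single arrays were left out, with 9 without AC replicate 1 (47 higher and 57 lower over all, against 7 and 3) and 0 without AC replicate 3, 4 or 5, YC replicate 1 or 5, ST replicate 5 or 6 or LT replicate 1, 3, 5 or 6, and 2 without ST replicate 1. With ST and LT averaged against AC, the count of 1 was 0 in the same settings as those that gave 0 for LT (other than some single arrays), and 0 to 10 when single arrays were left out, with 10 when AC replicate 1 was out (36 higher and 84 lower over all, against 2 and 2), 5 when AC replicate 2 was out and 0 when AC replicate 3, 4 or 5 was out. Over all tested probe sets, LT against AC had 14 higher and 14 lower with equal medians and 14 and 9 with a minimum of 100. Without ST replicate 1 it had 11 and 4. With ST and LT averaged and AC replicate 2 out, 7 were higher and 27 lower over all. LT against ST gave 0 in every setting. In ST against YC the count of 3 was 7 with equal medians, 7 with the compared groups alone and 2 to 6 when single arrays were left out, with 6 without AC replicate 5. Over all tested probe sets ST against YC had 361 higher and 192 lower with all arrays, 1079 and 157 with equal medians, 712 and 445 with the compared groups alone and 679 and 333 without AC replicate 5. In LT against YC the count of 1 was 0 with no signal minimum, with the one-way analysis of variance, with the RNA integrity number, with the choroid plexus score and without the 4 arrays, 2 with the compared groups alone, 3 with the microglia score (236 higher and 171 lower over all, against 108 and 30), and 0 to 2 when single arrays were left out, with 2 without AC replicate 5 and 0 without YC replicate 2, 3, 4 or 6, ST replicate 4 or LT replicate 1, 2, 3, 4 or 6. Over all tested probe sets LT against YC had 259 higher and 98 lower with the compared groups alone and 286 and 92 without AC replicate 5. The cause of these changes was not tested. Every call made with all arrays kept its direction in all settings. Some genes without a call did change sign. Without the arrays with Ttr above 5000, Sox18, for example, went below 0 in AC against YC and above 0 in ST against AC.

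Of 33 pairs of same-numbered arrays, 7 correlated over 0.1 (range -0.38 to 0.2). Differently numbered pairs were not set beside them, so whether the numbers pair the arrays was not settled. With the replicate block the count was 15 in AC against YC, and 0 in LT against AC and 0 with ST and LT averaged.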
